A study of Mus musculus with 6 samples.

Results

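Fibroblast growth factor (FGF) signalling was examined through 10 genes among the 24214 features counted in every sample: the kinase receptors Fgfr1, Fgfr2, Fgfr3 and Fgfr4, the receptor-like gene Fgfrl1, the ligands Fgf1, Fgf2, Fgf7 and Fgf9, and the ligand-binding protein Fgfbp1. They were chosen by gene name, with earlier results of these data known. The samples came from 2 derivatives of a mouse lung adenocarcinoma line of epithelial cells, called KP lung cancer cells in the labels and of the C57BL/6 strain. The 3 samples of 393P_ZEB1 carried a vector expressing ZEB1, a transcription factor that drives epithelial-to-mesenchymal transition (EMT), and the 3 samples of 393P_vector carried the empty vector. All 6 were grown in RPMI-1640 with 10% FCS, and total RNA was sequenced on the SOLiD platform. The promoter of the vector, and whether each line was a clone or a pool, are not given in the sources used here. Nothing in the labels says that replicates came from separate transfections or cultures, so p-values measure the spread between these samples, which may be technical.

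FGF ligands bind cell-surface receptor tyrosine kinases together with heparan sulfate, and the activated receptors signal through the adaptor Frs2 to the Ras and ERK pathway. The extracellular part of Fgfr1, Fgfr2 and Fgfr3 is spliced into alternative forms, the IIIb form in epithelial cells and the IIIc form in mesenchymal cells, which differ in the ligands they bind. In developing and adult lung, Fgf7 and Fgf10 are made by mesenchyme and act on the IIIb form of Fgfr2 in the neighbouring epithelium. The tables count reads per gene, so the splice forms were not measured.

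Libraries held between 54442450 and 79158012 counts, and levels are given as CPM, the counts scaled to library sizes normalised by the TMM method. The detection floor was set at 3 counts, which came to between 0.0379 and 0.0551 CPM and covers counting error only. In 393P_vector, replicate 3 stood apart, with 5.0% and 5.51% of tested genes at least 2-fold away from replicates 1 and 2, which differed from each other at 0.0648% of genes. Zeb1 rose from 21.5 to 51.7 CPM (log2 fold change 1.26, edgeR adjusted p = 6.06e-05). Its count may include reads of the vector's own ZEB1, and the gene lies on chromosome 18, whose median is given next. The lines also differed in chromosome-wide ways: 4 Y-linked genes summed to between 5861 and 10713 counts in 393P_vector and between 30 and 38 in 393P_ZEB1, and the median log2 fold change of genes on chromosome 18 was 0.64. Of 6 epithelial markers 5 fell, their summed level going from between 4378 and 5012 CPM to between 2745 and 3042, and all 4 mesenchymal markers rose. Over all tested genes, edgeR called 19.3% lower and 18.3% higher at an adjusted p below 0.05. The 4 alveolar type 2 markers were too low to test. Marker sums for fibroblasts, leukocytes and endothelial cells stayed at or below 4.12 CPM in each library, against 7593 CPM or more for the mesenchymal markers.

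In 393P_ZEB1 cells 3 of the 4 ligands rose, and the 3 kinase receptors that could be tested fell. Fgf7, Fgf1 and Fgf9 rose, whereas Fgfr1, Fgfr2, Fgfr3 and the secreted carrier Fgfbp1 fell, by an adjusted p below 0.05 in edgeR's quasi-likelihood test over 13892 genes. Fgf2 and Fgfrl1 did not pass this threshold, and Fgfr4 was too low to be tested. The counts were 3 higher and 4 lower among 9 tested members, in a comparison that called 18.3% of all tested genes higher and 19.3% lower. The 2 groups did not overlap in CPM for 7 members, as was the case for 52.8% of tested genes. The median log2 fold change was 0.19 over the tested members and -0.02 over all tested genes. The call of Fgf9 was the least firm, being lost in 9 of 14 other settings. Without 393P_vector replicate 3 the counts were 4 higher and 4 lower, and leaving out any other sample gave 2 higher and 4 lower, or 2 and 3 without 393P_ZEB1 replicate 2. In bulk RNA, fewer cells expressing a gene and less RNA per cell cannot be told apart.

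**Figure D1:**
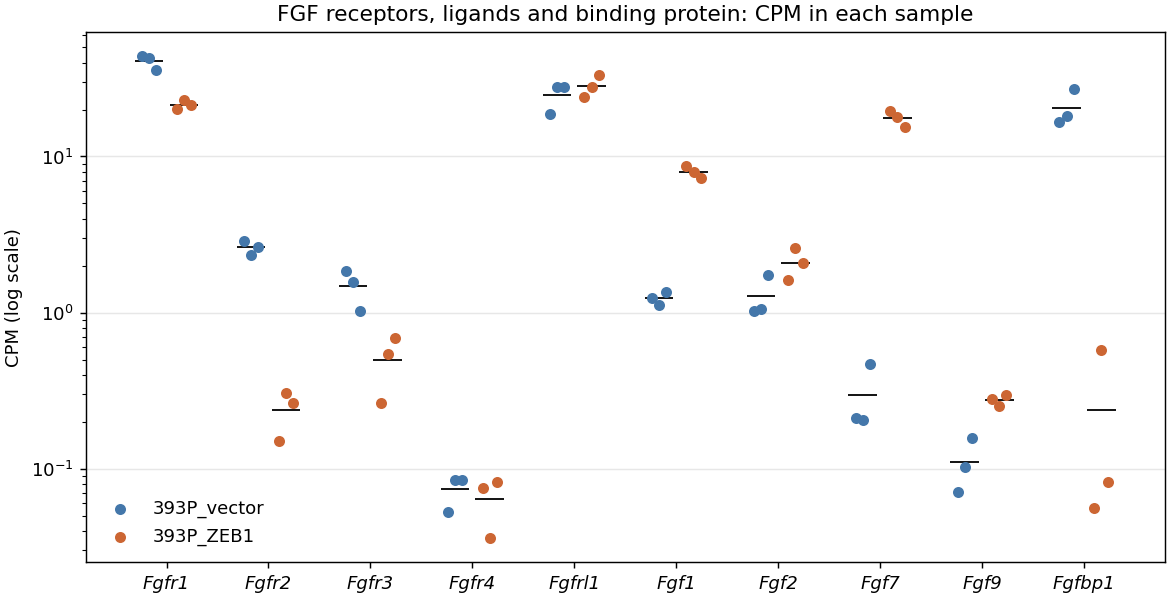
CPM of each of the 10 genes (log axis) in each sample, with 393P_vector in blue and 393P_ZEB1 in orange, points ordered by replicate from left to right and a black line at the group mean. The groups were separate for Fgfr1, Fgfr2, Fgfr3, Fgf1, Fgf7, Fgf9 and Fgfbp1 and overlapped for Fgfr4, Fgfrl1 and Fgf2.

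Fgfr1 was the main kinase receptor of both lines, and it was 1.90-fold lower in 393P_ZEB1 cells. The gene lies on chr8:25518772-25575714 on the plus strand (GRCm38) and has 19 counted exons, each with more than 10 reads in all 6 samples. Its level was 43.8, 42.8 and 35.8 CPM in 393P_vector replicates 1 to 3 and 20.1, 22.9 and 21.4 CPM in 393P_ZEB1 replicates 1 to 3. Every 393P_ZEB1 sample was below every 393P_vector sample. The means were 40.8 ± 4.36 and 21.4 ± 1.42 CPM (SD, n = 3 each), a log2 fold change of -0.93 (standard error 0.13, edgeR adjusted p = 0.000887).

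Fgfr2, whose IIIb form is the receptor of lung epithelium for Fgf7 and Fgf10, fell to low counts that stayed above the floor of 3. It lies on chr7:130162451-130266808 on the minus strand. Counts were 163, 137 and 220 in 393P_vector and 8, 17 and 16 in 393P_ZEB1, or 2.88, 2.33 and 2.65 CPM against 0.150, 0.306 and 0.262 CPM. The 3 low samples were those of 393P_ZEB1, and none of the 19 exons had more than 10 reads in any of them, against 2, 2 and 4 exons in 393P_vector. The mean fell from 2.62 ± 0.277 to 0.239 ± 0.0807 CPM (SD, n = 3 each), which is 10.9-fold lower (log2 fold change -3.44, standard error 0.28, edgeR adjusted p = 6.10e-05).

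Fgfr3, a further kinase receptor with epithelial and mesenchymal splice forms, lies on chr5:33721724-33737068 on the plus strand. It was at 1.84, 1.58 and 1.02 CPM in 393P_vector replicates 1 to 3 and at 0.262, 0.540 and 0.688 CPM in 393P_ZEB1 replicates 1 to 3. Counts were 104, 93 and 85 in 393P_vector and 14, 30 and 42 in 393P_ZEB1. Of the 21 exons, 1, 2 and 2 had more than 10 reads in 393P_vector and 0, 1 and 1 in 393P_ZEB1. The groups were separate, although 393P_vector replicate 3 and 393P_ZEB1 replicate 3 came close to each other. The log2 fold change was -1.56 (standard error 0.38, edgeR adjusted p = 0.0151), and without 393P_ZEB1 replicate 2 it no longer passed the threshold (-1.61, edgeR adjusted p = 0.0509). Fgfr4, the kinase receptor of liver for endocrine FGFs, had 3, 5 and 7 counts in 393P_vector and 4, 2 and 5 in 393P_ZEB1. Those counts were near the floor of 3 in both lines, and a difference was not detectable at this depth.

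Fgfrl1 encodes an FGF receptor-like protein that binds ligand but lacks the kinase domain. From its locus on chr5:108694229-108706950 it gave 18.7, 27.8 and 27.9 CPM in 393P_vector replicates 1 to 3 and 24.0, 28.1 and 33.0 CPM in 393P_ZEB1 replicates 1 to 3. The low value of 393P_vector replicate 1 apart, the ranges of the groups overlapped. The log2 fold change was 0.19, with a 95% interval of -0.26 to 0.64 (edgeR adjusted p = 0.469).

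Per kilobase of counted exon, the 4 kinase receptors summed to 9.03 ± 0.968 CPM per kb in 393P_vector and 4.48 ± 0.327 in 393P_ZEB1 (SD, n = 3 each). Fgfr1 made up 90.6% ± 0.620 of that sum in 393P_vector and 96.0% ± 1.22 in 393P_ZEB1. The share of Fgfr2 was 5.49% ± 0.809 in 393P_vector and 0.990% ± 0.275 in 393P_ZEB1. Fgfr3 held 3.69% ± 0.688 and 2.50% ± 1.02, and Fgfr4 stayed below 0.58% in every sample. In both lines, then, the kinase receptors other than Fgfr1 were a small part of the sum, and a smaller one in each 393P_ZEB1 sample.

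Transcripts of the 4 ligands, taken the same way, summed to 2.29 ± 0.672 CPM per kb in 393P_vector and 11.7 ± 0.953 in 393P_ZEB1. In 393P_vector, Fgf2 was 79.8% ± 1.75 of the sum and Fgf7 was 4.64% ± 0.952. In 393P_ZEB1, Fgf7 was 56.2% ± 4.32, Fgf2 25.7% ± 5.40 and Fgf1 17.5% ± 1.20, and Fgf9 was below 1.3% in each sample of either line. Fgf7 thus went from a small part of the sum to its largest part. The place of Fgf2 rests on its counted exon length of only 692 bases. In plain CPM, without the length, Fgf1 and Fgf2 were level in 393P_vector, at 43.5% ± 6.21 and 43.1% ± 3.21. On that scale Fgf7 was 62.9% ± 1.75 in 393P_ZEB1, Fgf1 28.6% ± 0.774 and Fgf2 7.53% ± 1.90. The 4 ligands then summed to 2.92 CPM in 393P_vector and 28.0 in 393P_ZEB1. These sums leave out the other FGF genes, of which 2 rose and 2 fell. Among those that fell, Fgf15 went from 4.59 CPM in 393P_vector to 0.305 in 393P_ZEB1.

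**Figure D2:**
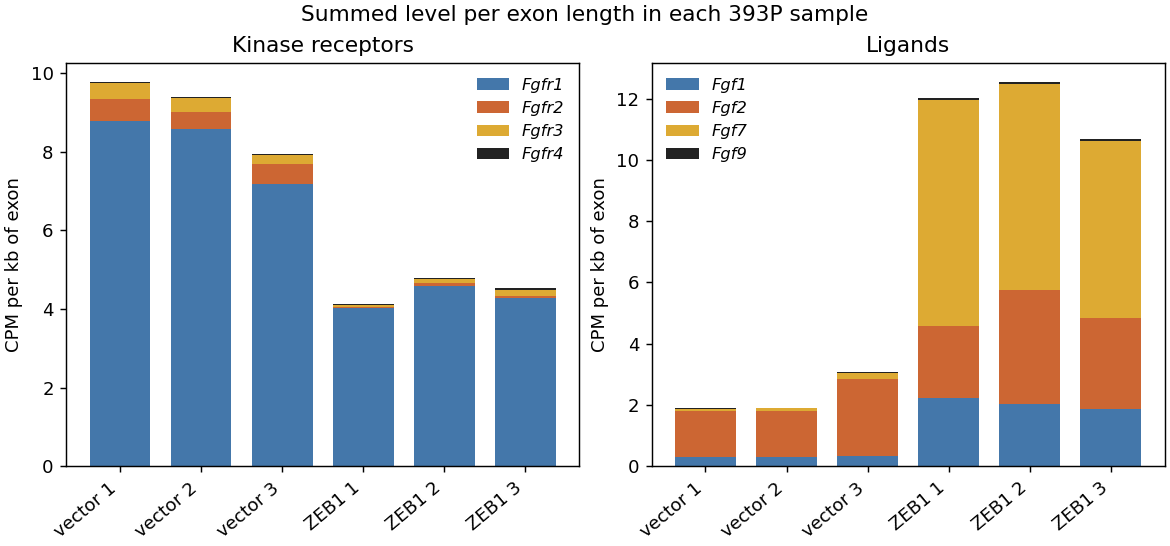
CPM per kb of counted exon for the 4 kinase receptors (left) and the 4 ligands (right), stacked in each of the 6 samples. The receptor sum was lower in all 3 samples of 393P_ZEB1 and nearly all Fgfr1, and the ligand sum was higher in all 3, with Fgf7 as its largest part.

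Fgf1, an acidic FGF that can bind all FGF receptors and has no classical secretion signal, rose in 393P_ZEB1 cells. Levels were 1.24, 1.12 and 1.36 CPM in 393P_vector replicates 1 to 3 and 8.75, 7.96 and 7.31 CPM in 393P_ZEB1 replicates 1 to 3. Replicates lay close together in both groups, and the means were 1.24 ± 0.119 and 8.0 ± 0.722 CPM (SD, n = 3 each). The log2 fold change was 2.69 (standard error 0.17, edgeR adjusted p = 1.44e-05). The gene lies on chr18:38838673-38918699 on the minus strand, on the chromosome whose 396 tested genes had a median log2 fold change of 0.64, and Fgf1 was 2.05 above that median. Of its 4 counted exons, 1 had more than 10 reads in each 393P_vector sample and 2 in each 393P_ZEB1 sample. It overlaps Gm5820 on the other strand, which had 5 to 26 counts per sample against 66 to 468 for Fgf1, and whether counting used strand is not given in the sources used here.

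Fgf7, the keratinocyte growth factor that mesenchymal cells make for epithelial cells, had the largest rise of the 10 genes. It lies on chr2:126034658-126091185 on the plus strand. Counts were 12, 12 and 39 in 393P_vector and 1049, 995 and 938 in 393P_ZEB1, or 0.212, 0.204 and 0.469 CPM against 19.6, 17.9 and 15.4 CPM. All 4 exons had more than 10 reads in each 393P_ZEB1 sample, against 0, 0 and 2 exons in 393P_vector. The mean went from 0.295 ± 0.151 to 17.6 ± 2.14 CPM (SD, n = 3 each), which is 59.7-fold higher (log2 fold change 5.84, standard error 0.32, edgeR adjusted p = 8.31e-06). Its overlapping antisense gene 4930525F21Rik had at most 6 counts in any sample.

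Fgf2, the basic FGF, lies on chr3:37348653-37404830 on the plus strand, and its counted interval ends 5278 bases before the end of the gene in GENCODE, so most of its 3′ UTR was not counted. It was at 1.02, 1.05 and 1.73 CPM in 393P_vector replicates 1 to 3 and 1.63, 2.57 and 2.06 CPM in 393P_ZEB1 replicates 1 to 3. Only 393P_vector replicate 3 overlapped with the other group. The log2 fold change was 0.71 (95% interval 0.05 to 1.37, edgeR adjusted p = 0.0881). Without 393P_vector replicate 3 it was 1.01 and passed the threshold (edgeR adjusted p = 0.00589).

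Fgf9, a ligand of the IIIc forms that is made by lung epithelium and mesothelium during development, was scarce. It had 4, 6 and 13 counts in 393P_vector and 15, 14 and 18 in 393P_ZEB1, and in CPM all 3 samples of 393P_ZEB1 were above the others. The log2 fold change was 1.27 (standard error 0.37, edgeR adjusted p = 0.0296). Leaving out any of 393P_vector replicates 1 and 2 and 393P_ZEB1 replicates 1, 2 and 3 gave edgeR adjusted p-values between 0.0675 and 0.0924.

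ZEB1 is known to repress the miR-200 family, whose members share 2 seeds, and the mature sequences are shown here (RefSeq, GRCm38.p6) to make the sites in the ligand transcripts readable. Capitals mark the seed, bases 2 to 8 of the microRNA.
mmu-miR-200b-3p: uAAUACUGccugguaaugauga
mmu-miR-200c-3p: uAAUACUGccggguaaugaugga
mmu-miR-429-3p: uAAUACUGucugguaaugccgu
mmu-miR-200a-3p: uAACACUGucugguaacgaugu
mmu-miR-141-3p: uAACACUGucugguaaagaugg
The first 3 share one seed and the last 2 the other, a single base apart. Mature microRNAs were not measured, but reads on the 5 hairpin genes summed to between 109 and 207 counts in 393P_vector and between 0 and 2 in 393P_ZEB1. Most of these reads were on Mir200c (78, 70 and 125 in 393P_vector) and Mir200b (29, 26 and 54). Mir200a had 8, 5 and 15 counts in 393P_vector and Mir429 had 9, 8 and 13, and both had none in 393P_ZEB1. Mir141 had at most 1 count in any sample.

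Matches to the 7 seed bases, CAGTATT and CAGTGTT, were looked for downstream of the stop codon, in the longest protein-coding transcript per gene (GENCODE M21). Among the 10 genes, 3 held a match, all of them ligands (Fgf2, Fgf7 and Fgf9), and Fgf1, Fgfbp1 and the 5 receptor genes held none. Over 12005 tested genes with a 3′ UTR, 30.4% held at least 1 match of either kind, 15.7% CAGTATT and 21% CAGTGTT. Longer UTRs hold more matches by length alone: the UTRs of Fgf2 and Fgf9 were 5311 and 3142 bases, that of Fgf7 was 1624 bases, and the median was 1179. The sites follow with the match in capitals, each on the plus strand of GRCm38.
Fgf2 chr3:37408320-37408348: ataggtaacggCAGTATTgaaagacagag
Fgf7 chr2:126090040-126090068: cagacgatgagCAGTGTTtgaaagctttc
Fgf9 chr14:58111898-58111926: tgaattttgagCAGTGTTtttgtttgtta
Fgf9 chr14:58112628-58112656: atgtccccaagCAGTGTTgaaggacatgc
Fgf9 chr14:58112651-58112679: acatgccaggtCAGTGTTggaacctgccc
The Fgf2 site matches the seed of miR-200b, miR-200c and miR-429 and lies past the counted interval. Those of Fgf7 and Fgf9 match miR-141 and miR-200a, whose hairpin counts, given above, do not measure the mature forms. A match of letters is a description, and whether any of these sites is used was not tested.

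Fgfbp1, a secreted carrier that releases FGFs from the extracellular matrix, had the largest fall. It lies on chr5:43978861-43981762 on the minus strand. Counts were 944, 1063 and 2234 in 393P_vector and 3, 32 and 5 in 393P_ZEB1, which is 16.7, 18.1 and 26.9 CPM against 0.0561, 0.576 and 0.0819 CPM. Replicates 1 and 3 of 393P_ZEB1 were at or near the floor of 3 counts. The means were 20.5 ± 5.54 and 0.238 ± 0.293 CPM (SD, n = 3 each), an 86.3-fold difference (log2 fold change -6.43, standard error 0.66, edgeR adjusted p = 0.000207). Without 393P_ZEB1 replicate 2, the one with 32 counts, the log2 fold change was -8.16 (edgeR adjusted p = 6.20e-05).

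The 3 genes with the largest changes, Fgfbp1, Fgf7 and Fgfr2, are shown by the 250 bases before their start (RefSeq, GRCm38.p6), written 5′ to 3′ on the strand of the gene, with CG pairs in capitals.
Fgfbp1 chr5:43981800-43982049 minus: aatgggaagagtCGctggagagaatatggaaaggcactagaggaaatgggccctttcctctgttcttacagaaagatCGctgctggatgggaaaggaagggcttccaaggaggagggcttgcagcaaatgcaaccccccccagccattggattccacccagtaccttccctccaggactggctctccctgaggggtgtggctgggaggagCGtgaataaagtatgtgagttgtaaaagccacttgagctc
Fgf7 chr2:126034408-126034657 plus: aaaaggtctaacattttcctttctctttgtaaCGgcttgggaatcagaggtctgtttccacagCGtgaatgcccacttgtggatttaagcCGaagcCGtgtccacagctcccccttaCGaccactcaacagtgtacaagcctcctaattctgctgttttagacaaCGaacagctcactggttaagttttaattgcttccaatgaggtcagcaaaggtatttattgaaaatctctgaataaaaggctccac
Fgfr2 chr7:130266809-130267058 minus: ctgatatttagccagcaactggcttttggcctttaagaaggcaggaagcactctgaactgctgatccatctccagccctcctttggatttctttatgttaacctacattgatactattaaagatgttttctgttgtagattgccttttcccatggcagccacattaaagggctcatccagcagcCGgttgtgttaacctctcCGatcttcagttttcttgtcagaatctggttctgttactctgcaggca
These stretches hold 3, 6 and 2 CG pairs, against a median of 6 over 32851 promoters. As few or fewer were found in 37.8%, 53.7% and 29.0% of those promoters. The E-box bound by ZEB1, CAGGTG or CACCTG on either strand, was absent from all 9 windows of 300 bases around the starts of 8 of the 10 genes (all but Fgfr1 and Fgf1), whereas 20.2% of all windows hold it. Its shorter core, AGGTG or CACCT, searched after this was seen, occurred in 2 of the 9, at 238 bases before the start of Fgfr3 and 50 before that of Fgfr4, against 51.9% of all windows. The starts are those of RefSeq, and in GENCODE some of these genes begin further upstream. The distance was 2856542 bases for Fgfr2, 2139 for Fgf9 and 1847 for Fgfrl1, so other promoters may lie outside the windows. No match in these windows says nothing about binding elsewhere.

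**Figure D3:**
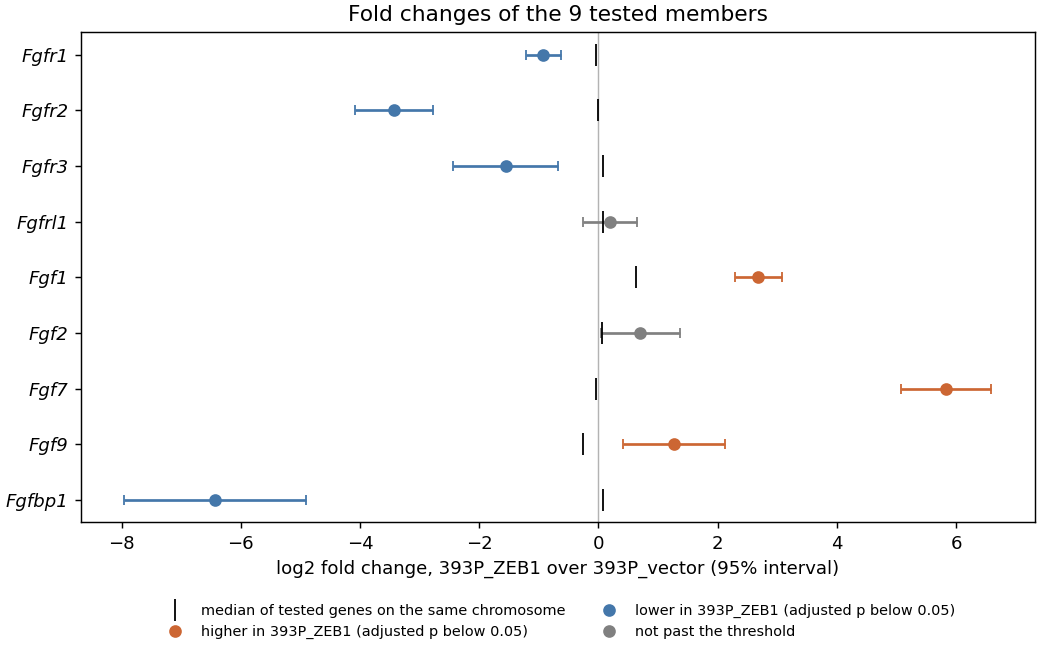
Log2 fold change of 393P_ZEB1 over 393P_vector with its 95% interval for the 9 tested genes, and a black tick at the median of tested genes on the same chromosome. The intervals of the 7 called genes excluded 0, as did that of Fgf2, which was not called (edgeR adjusted p = 0.0881). The tick was near 0 except for Fgf1, at 0.64, and Fgf9, at -0.26.

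Ordered by CPM per kb, the 393P_vector cells had Fgfbp1 first at 17.8, then Fgfrl1 at 9.37 and Fgfr1 at 8.18, then Fgf2 at 1.84. Fgfrl1 and Fgfr1 overlapped between samples, as did Fgfr3 with Fgf1 and Fgf9 with Fgfr4 further down. In 393P_ZEB1 cells the order was Fgfrl1 at 10.7, Fgf7 at 6.61, Fgfr1 at 4.30, Fgf2 at 3.02 and Fgf1 at 2.05, each separate from the next. Fgfbp1 was sixth, at 0.206, and overlapped with Fgfr3. The exact two-sided permutation test of single genes gave p = 0.1, the smallest that 3 samples against 3 allow, for the 7 called genes, and p = 0.2, 0.4 and 0.5 for Fgf2, Fgfrl1 and Fgfr4.

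Of 18 other FGF genes only 5 were high enough to test, of which 2 rose, 2 fell and Fgf5 (-0.84, edgeR adjusted p = 0.0999) did not pass. Among all tested genes 18.3% were called higher and 19.3% lower. Fgf10, the second mesenchymal ligand of the IIIb form of Fgfr2, rose with a log2 fold change of 1.23 (edgeR adjusted p = 0.0329), but from 0.229 to only 0.533 CPM. Fgf13, an intracellular family member that binds sodium channels, rose by 1.35 (edgeR adjusted p = 0.0136), from 4.64 to 11.9 CPM. Fgf15, an endocrine ligand of Fgfr4, and Fgf11, another intracellular member, had log2 fold changes of -3.92 and -2.17 (edgeR adjusted p = 5.55e-05 and 0.00272). Fgf15 went from 4.59 to 0.305 CPM and Fgf11 from 0.677 to 0.149 CPM.

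The FGF co-receptors and membrane partners were mixed, with 2 of 6 tested genes higher and 1 lower, against 18.3% and 19.3% of all tested genes. Flrt2 rose and Flrt3 fell, both encoding membrane proteins that can bind FGF receptors, with log2 fold changes of 2.61 and -0.83 (edgeR adjusted p = 6.90e-05 and 0.0257). Cdh2, the N-cadherin that can associate with Fgfr1 and is also a mesenchymal marker, rose by 2.04 (edgeR adjusted p = 4.87e-05), on chromosome 18. The klotho co-receptors of endocrine FGFs, Kl and Klb, were too low to test.

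Of 12 genes that build or trim heparan sulfate, 5 rose and 1 fell, and their median log2 fold change was -0.07. The shares over all tested genes were 18.3% higher and 19.3% lower. Hs6st2, which adds 6-O-sulfate, had 4.30 (edgeR adjusted p = 8.28e-06), going from 0.165 to 3.26 CPM. Sulf2 and Sulf1, the extracellular enzymes that remove 6-O-sulfate, rose as well, by 2.42 and 1.47 (edgeR adjusted p = 0.000245 and 0.00610). Ext1, a polymerase of the chain, had 0.75, and Hs6st1, another 6-O-sulfotransferase, had -0.55 (edgeR adjusted p = 0.000632 and 0.00507).

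Among 13 adaptors and effectors, 3 rose, 2 fell and the median log2 fold change was 0.05, counts close to the 18.3% and 19.3% called over all tested genes. The 2 docking proteins of the receptors fell, Frs2 by 0.46 and Frs3 by 1.12 on the log2 scale (edgeR adjusted p = 0.0362 and 0.00768). Cblb, a ubiquitin ligase, rose by 1.02, the adaptor Shc1 by 0.79 and the phospholipase Plcg1 by 0.77 (edgeR adjusted p = 0.000163, 0.0118 and 0.0299).

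Feedback and ERK-responsive genes, which FGF signalling is known to induce, split in direction: 6 of 16 rose, 3 fell, and the median log2 fold change was 0.32. Over all tested genes, 18.3% were called higher and 19.3% lower. The Sprouty inhibitors went opposite ways, with log2 fold changes of 2.24 for Spry4, -2.52 for Spry1 and -0.86 for Spry2 (edgeR adjusted p = 6.84e-06, 2.22e-05 and 0.000407). Etv1 had 2.66, Egr1 2.36 and the receptor antagonist Il17rd 1.22 (edgeR adjusted p = 0.000627, 1.25e-05 and 0.00117), whereas Phlda1 had -1.45 (edgeR adjusted p = 0.000713). Spry4 and Egr1 are on chromosome 18, with its median of 0.64.

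The regulators of FGF receptor splicing were lower in 3 of 4 cases, against 19.3% of all tested genes. Esrp1 and Esrp2 are the epithelial factors that favour the IIIb exon of the receptors. Esrp1 was at 92.5, 88.5 and 83.1 CPM in 393P_vector replicates 1 to 3 and at 0.467, 0.414 and 0.344 CPM in 393P_ZEB1 replicates 1 to 3, a log2 fold change of -7.75 (standard error 0.17, edgeR adjusted p = 2.64e-07). Esrp2 fell less, from 41.0 ± 4.33 to 16.1 ± 0.560 CPM (SD, n = 3 each; log2 fold change -1.35, edgeR adjusted p = 9.85e-05). Rbfox2 had -0.33 (edgeR adjusted p = 0.0432) and Ptbp1 did not pass the threshold. Which exon the remaining Fgfr1 transcripts used was not measured here.

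**Figure D4:**
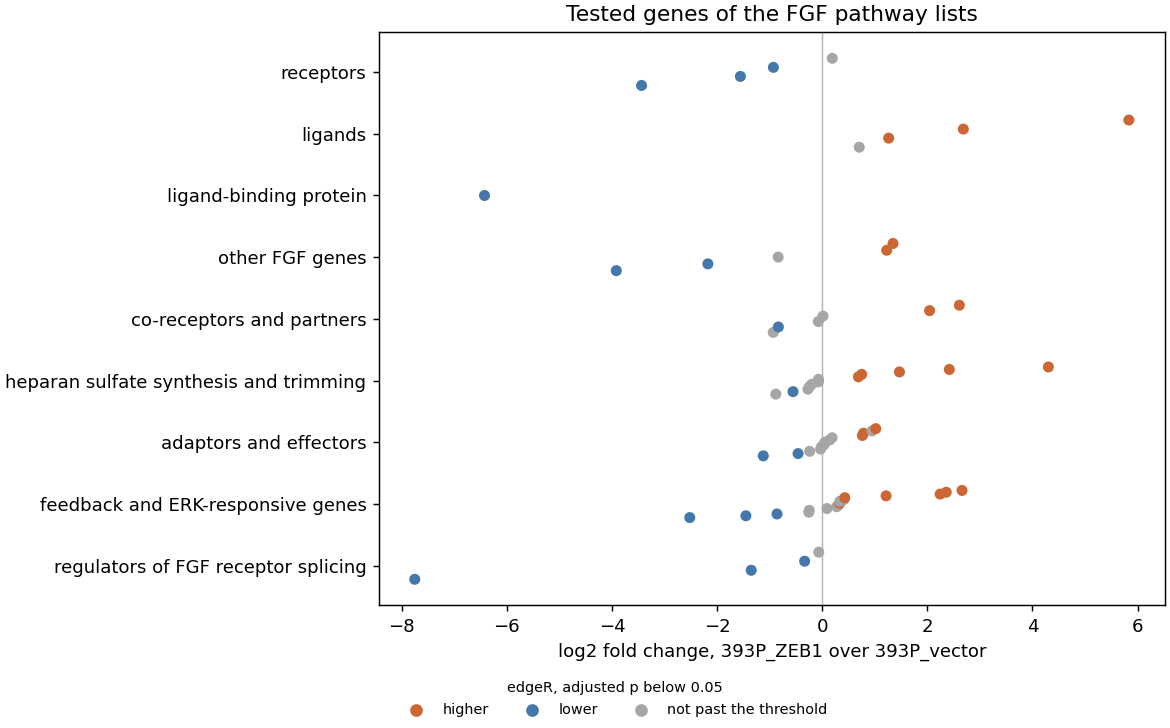
Log2 fold change of 393P_ZEB1 over 393P_vector for every tested gene of the 9 lists, 1 point per gene, orange for genes higher and blue for genes lower at an adjusted p below 0.05 in edgeR. The 3 tested kinase receptors and the 4 splicing regulators lay to the left, with Ptbp1 at -0.06 and not called. The 4 ligands lay to the right, with Fgf2 not called. The other FGF, co-receptor, heparan sulfate, adaptor and feedback lists had points on both sides.

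Among the genes whose levels over the 6 samples were most like those of Fgfr1 were Zbtb39 and Atp9a, each with a Pearson r of 0.999 on log2 CPM. Those most like Fgf7 were Pde3b, Fzd4 and Parm1. Such likeness was common in 6 samples of 2 groups, where 1115 and 1293 tested genes had r above 0.95 with Fgfr1 and Fgf7.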

How the data were processed

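The 6 samples were analysed as 3 per group by their labels, and none was left out. The authors deposited a raw read count and an RPKM per RefSeq feature for each sample. The RPKM values were used only to check the totals. The aligner, counting program and strand setting are not given in the sources used here. Coordinates are those of GRCm38.

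Counts were tested with edgeR 4.0.16 in R 4.3.3 (robust quasi-likelihood fit, TMM, filterByExpr with a minimum count of 10, Benjamini-Hochberg adjustment over 13892 genes, threshold 0.05), after the procedure was tested on simulated data. Alternatives used DESeq2 1.42.0 and limma 3.58.1. Tables and plots used Python 3.11.15, pandas 2.3.3, SciPy 1.17.1 and matplotlib 3.10.9. CPM per kb divides CPM by the counted exon length. Likeness used log2(CPM + 0.05).

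The members and lists were chosen with earlier results of these data known. All 10 members are named, with up to 4 called genes per direction from each pathway list, by size of change, the 3 genes most like the receptor and the ligand with the highest mean CPM over the 6 samples (Fgfr1 and Fgf7), and Zeb1. A gene that this rule names is not reported here.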

Additional observations from a re-analysis of the deposited data

How the results depend on the processing

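Fgfr1, Fgfr2, Fgf1, Fgf7 and Fgfbp1 kept their direction and their side of the threshold in every setting in which they could be fitted, and no member reversed. Among the recomputed values, 152 were classed as the same, 12 lost a call, 3 gained one and 3 moved in size. Counts of called members were also classed so when they went from 3 higher to 2 or 4, or from 4 lower to 3. With limma voom and sample weights 5 members were higher, since Fgf2 (1.05, adjusted p = 0.000922) and Fgfrl1 (0.44, adjusted p = 0.0401) passed. With at least 10 counts required in every sample 2 were lower, because Fgfr2 and Fgfbp1 were not fitted. At a threshold of 0.01 and in the test against a 1.5-fold change, Fgfr3 (-1.56) and Fgf9 (1.27) no longer passed. Fgf9 also did not pass with DESeq2 (1.30, adjusted p = 0.0715). Leaving out each sample gave -1.86 to -1.25 for Fgfr3, 0.54 to 1.01 for Fgf2 and 1.06 to 1.65 for Fgf9. The share of Fgfr4 in 393P_vector was 0.168% without the length, against 0.267%.

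Replicates with the same number did not deviate together (r = 0.279, -0.205 and -0.0377 across genes), so the numbers were not taken to pair the samples. With a replicate block, Fgf9 had 1.31 (adjusted p = 0.0546) and 2180 genes were higher and 2256 lower, and no other member changed its call.

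Over all genes, 2539 were higher and 2679 lower. These became 3977 and 4094 with limma voom, 3700 and 3776 without 393P_vector replicate 3, 1861 and 1784 without 393P_ZEB1 replicate 3, 1584 and 1545 at a threshold of 0.01, and 1081 and 1118 against a 1.5-fold change. The cause was not tested. Depth limits Fgfr4, Fgf9, and Fgfr2, Fgfr3 and Fgfbp1 in 393P_ZEB1, which had few counts.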
